A study of Mus musculus with 24 samples.

Results

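The transcripts of the 9 desmosomal cadherin genes of the mouse were followed across the WT, HET and KO genotypes: the desmogleins Dsg1a, Dsg1b, Dsg1c, Dsg2, Dsg3 and Dsg4 and the desmocollins Dsc1, Dsc2 and Dsc3. They were chosen by gene symbol as all members of both families in the deposited table, so 9 of 54087 symbols are described, and all 9 had at least 1 count. The material was skin of mouse embryos at E18.5, taken from the back and frozen. WT embryos carried both copies of the tandem Dsg1c, Dsg1a and Dsg1b genes, HET embryos (Dsg1+/-) had lost that tandem from 1 chromosome, and KO embryos (Dsg1-/-) had lost it from both. The deletion was made with CRISPR/Cas9 in C57BL/6J zygotes, all carriers descend from 1 founder that was backcrossed, and embryos of both sexes were used. Libraries were made from poly(A) RNA with a kit that keeps the strand.

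Desmosomes are the junctions that hold keratinocytes to each other under mechanical load. Desmogleins and desmocollins are the transmembrane cadherins that meet across the gap between the cells, while plakoglobin (Jup), the plakophilins (Pkp) and desmoplakin (Dsp) tie their tails to keratin filaments inside. In stratified epidermis the cadherins are layered: Dsg3 and Dsc3 are strongest in the basal and lower layers, Dsg1 and Dsc1 in the upper, differentiated layers. Dsg2 and Dsc2 are the widespread pair of simple epithelia and heart, and Dsg4 belongs chiefly to the hair follicle and the uppermost epidermis. The mouse has 3 copies of the gene for desmoglein 1, where human has a single one.

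The 24 libraries, 8 per genotype, held 8.98 M to 20.96 M counts (M, mega), with a median of 17.21 M. Libraries with the same genotype and the same title number were summed into 15 columns of 15.28 M to 33.68 M counts, 5 per genotype, which serve as the replicates. The labels do not say what the title number stands for, so p-values measure the spread between these columns, which may be in part technical. A total of 9 numbers have 2 libraries, each with its own title format, and the median ratio of a member's levels between them was 0.971 to 1.05, over the 3 to 9 pairs with enough counts. The libraries of number 35, which form WT replicate 2, stood apart: one held 338 CPM of Y-linked genes and 0.275 CPM of Xist, the other 0.157 CPM and 574 CPM. These are a male and a female pattern, so the 2 libraries do not come from 1 embryo. WT replicate 2 thus mixes embryos or holds a library with a wrong label, and the labels do not say which. The cadherin levels of the 2 libraries lay close together, with Dsg1a at 665 and 668 CPM, Dsc1 at 880 and 903 CPM and Dsg3 at 28.6 and 25 CPM. Without WT replicate 2, the number of members called was 3 in KO vs WT, 0 in HET vs WT and 3 in KO vs HET, as with it. With the 2 libraries of number 35 as separate columns, Dsg4 was also called in KO vs WT by edgeR (log2 fold change 1.66, adjusted p = 0.0543). Dsg2 then passed the p threshold (adjusted p = 0.0582) and not the fold limit. Epidermal markers were present in every column: none of the 7 basal and 7 suprabasal keratinocyte markers was at 0. Because whole skin was sequenced, fewer cells of a type and less RNA per cell cannot be told apart.

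Levels of a gene in different columns are given in CPM, counts scaled to a common library size with TMM factors. Levels of different genes are compared only after division by the length of the annotated exons in kb, written as RPKM. Members count as called where their adjusted p did not exceed 0.1 and their log2 fold change was at least 1 in size.

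The deleted genes were examined first. Dsg1a stood at 665, 651, 650, 831 and 825 CPM in WT, at 332, 409, 340, 444 and 369 CPM in HET, and at 0.811, 0.738, 0.553, 0.0514 and 0.286 CPM in KO. Dsg1b stood at 59.8, 72.1, 73.8, 101 and 97.8 CPM in WT, at 39.2, 45.7, 36, 47.7 and 45.5 CPM in HET, and at 0.0902 CPM or less in KO. For both genes every HET column lay below every WT column, and every KO column below every HET column. Among all genes, 1.76% had every KO column below every WT column and 1.3% had every KO column below every HET column. In KO vs WT the fitted log2 fold change was -10.43 ± 0.34 (SE) for Dsg1a (adjusted p = 1.57e-11) and -10.20 ± 0.27 for Dsg1b (adjusted p = 3.26e-13). KO columns still held 27, 20, 13, 1 and 6 counts of Dsg1a. The source of these counts was not tested.

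Dsg1c was a minor gene of the tandem in this tissue. Its counts were 5, 16, 18, 11 and 13 in WT, 7, 5, 3, 2 and 4 in HET, and 0 in each KO column. It fell below the filter on low counts and has no test in the fit of all 15 columns. With a floor of 3 counts for a count of 0, taken over the group, WT was at least 19.5-fold higher than KO and HET at least 7.19-fold higher. The division among the Dsg1 genes was alike in WT and HET: Dsg1a took 89.1% to 91.7% of the Dsg1 counts of a WT column and 89.0% to 90.4% of those of a HET column. This division is uncertain, because the 3 copies resemble each other. Of all 50-base stretches of the annotated transcript, 35.02% in Dsg1a, 48.94% in Dsg1b and 29.64% in Dsg1c also occurred in a transcript of another gene, against at most 0.12% in any of the other 6 members, and reads from such stretches may have been lost or moved in counting.

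With 1 copy of the tandem left, HET Dsg1 transcripts were lower than in WT in every column. The HET mean was 52.3% of the WT mean for Dsg1a and 52.9% for Dsg1b, with log2 fold changes of -0.94 ± 0.22 (adjusted p = 1) and -0.92 ± 0.14 (adjusted p = 0.135). Neither passed the threshold over 17094 genes, although the groups did not overlap, which held for 0.234% of all genes in the lower direction. For Dsg1c the HET mean was 36.3% of the WT mean, on 21 against 63 counts. In HET vs WT 0 of the 8 members tested were called in either direction by edgeR, where 0% of all genes were called higher and 0% lower. At an unadjusted p below 0.05 there were 4 members, Dsg1a, Dsg1b, Dsg3 and Dsg4, and 270 genes in all, and DESeq2 passed Dsg1a, Dsg1b and Dsg3 at an adjusted p of 0.1 or below with no fold limit. Without WT replicate 1, 1 member, Dsg1b, was called (log2 fold change -1.01, adjusted p = 0.0343). In the edgeR fit of only the 2 genotypes, the SE for Dsg1a was 0.11 (adjusted p = 0.0178) and that for Dsg1b 0.14 (adjusted p = 0.152). The adjusted p was at or below 0.1 in 4 of 26 alternatives for Dsg1a and in 8 of 26 for Dsg1b.

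**Figure D1:**
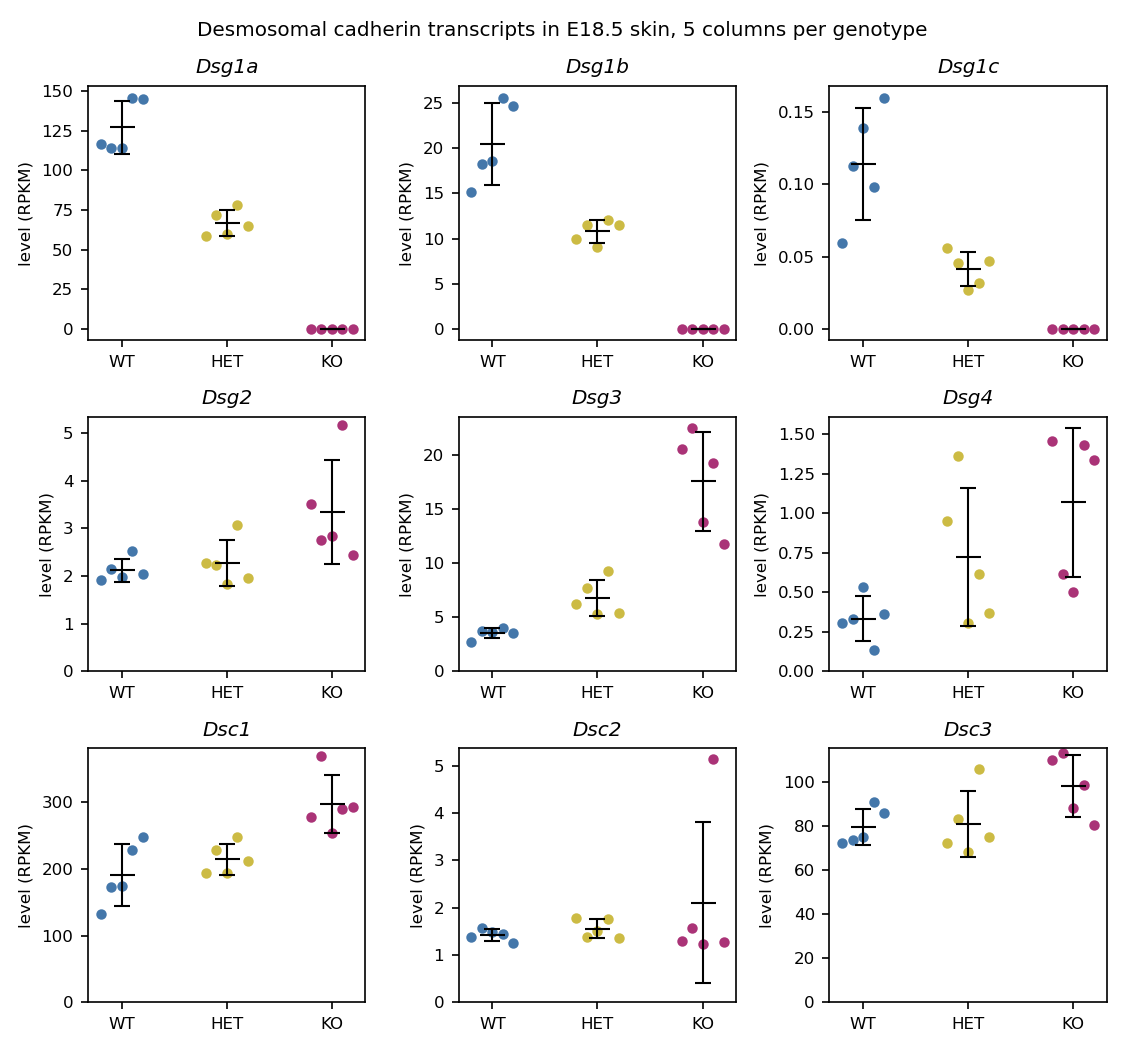
Level of each of the 9 desmosomal cadherin genes in RPKM (linear axis that differs between panels), with 1 point per summed column, 5 per genotype, and the mean with its SD as bars. Dsg1a, Dsg1b and Dsg1c step down from WT to HET to KO, Dsg3 steps up with no overlap between genotypes, and 1 KO column (replicate 4) lies far above the others for Dsc2.

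Among the members outside the deletion, Dsg3, the main desmoglein of the basal layers, rose. It stood at 19.3, 25.9, 25.4, 28.1 and 24.6 CPM in WT, at 43.4, 53.6, 37.2, 64.9 and 37.8 CPM in HET, and at 143, 157, 96.5, 134 and 82.4 CPM in KO. The ranges of the 3 genotypes did not touch. In KO vs WT the log2 fold change was 2.31 ± 0.19 (adjusted p = 1.41e-05), a 4.97-fold higher level, and in KO vs HET it was 1.37 ± 0.19 (adjusted p = 0.0103), a 2.59-fold higher level. Within the libraries of one title format, the KO vs WT value for Dsg3 was 2.25 ± 0.18 in format 1 (adjusted p = 0.000769) and 2.36 ± 0.20 in format 2 (adjusted p = 1.27e-05). In HET vs WT Dsg3 was at 1.92-fold (log2 fold change 0.94 ± 0.19, unadjusted p = 0.000131, adjusted p = 1), so it was not called. Groups that did not overlap in the higher direction made up 0.14% of all genes in HET vs WT, 1.61% in KO vs WT and 0.954% in KO vs HET.

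Across the 9 members, KO vs WT called 1 higher (Dsg3) and 2 lower (Dsg1a and Dsg1b) of the 8 tested, against 0.135% of all genes called higher and 0.187% called lower. Leaving out KO replicate 3 or KO replicate 5 raised the 3 calls to 5, with Dsg4 and, once tested, Dsg1c. With no fold limit Dsc1 also passed, so 2 members were higher, against 0.614% of all genes higher. KO vs HET called Dsg3 higher and Dsg1a and Dsg1b lower, against 0.0819% of all genes higher and 0.0995% lower. All 6 members outside the deletion had a positive fold change in each of the 3 comparisons, with a median log2 value of 0.65 in KO vs WT, 0.15 in HET vs WT and 0.51 in KO vs HET. The medians over all genes were -0.01, 0.00 and 0.00. The comparisons share columns and are not independent of each other.

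**Figure D2:**
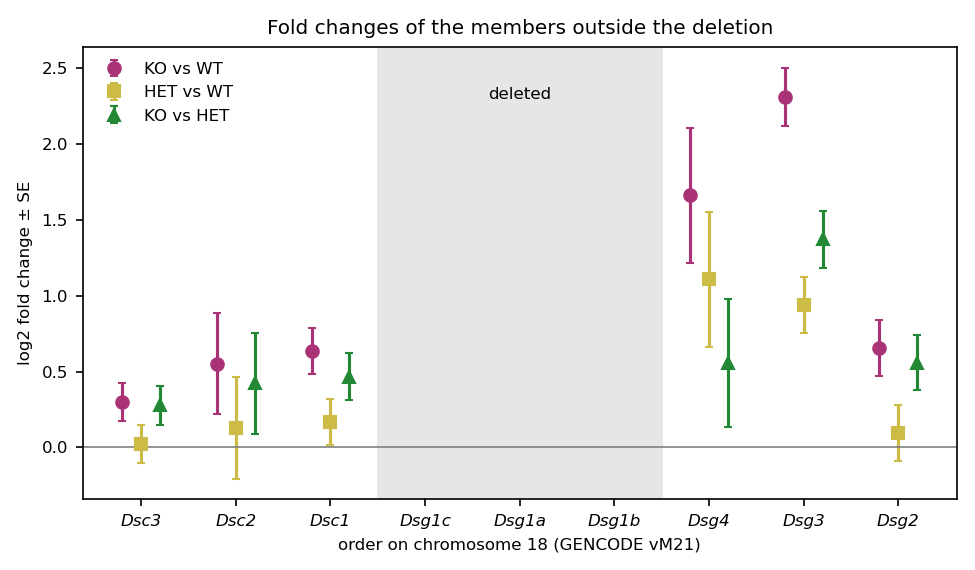
Log2 fold change with its SE (vertical axis) of the 6 members outside the deletion, in the order of the genes on chromosome 18 (horizontal axis), for KO vs WT (circles), HET vs WT (squares) and KO vs HET (triangles). The highest KO vs WT values are those of Dsg3 at 2.31 and Dsg4 at 1.66, on the desmoglein side of the deleted genes, while the desmocollins lie between 0.30 and 0.64.

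Dsc1, the desmocollin of the upper epidermis, had the highest mean level of all members in every genotype. It stood at 665, 872, 878, 1150 and 1250 CPM in WT, at 973, 1150, 974, 1250 and 1060 CPM in HET, and at 1400, 1860, 1280, 1460 and 1480 CPM in KO. The KO columns lay above all WT and all HET columns, while HET and WT overlapped. The log2 fold change in KO vs WT was 0.64 ± 0.15 (adjusted p = 0.0915), a 1.56-fold higher level that passed the p threshold and not the fold limit. The adjusted p is near its limit: it passed in 13 of 26 alternatives and was 0.215 without WT replicate 2 and 0.551 in the 9 libraries of title format 1 alone. Among the alternatives that it did not pass is the main fit held to a limit of 0.05. In KO vs HET the value was 0.47 ± 0.15 (adjusted p = 0.181) and in HET vs WT 0.17 ± 0.15 (adjusted p = 1).

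Dsc3, the desmocollin of the lower layers, was at 430 ± 44.6 CPM in WT (SD, n = 5), 437 ± 81 CPM in HET and 530 ± 75.3 CPM in KO. Its ranges were 391 to 491 CPM in WT, 368 to 572 CPM in HET and 434 to 611 CPM in KO, and they overlapped. The log2 fold change in KO vs WT was 0.30 ± 0.13 (adjusted p = 0.213) and did not pass. Dsc3 and Dsg3, both strongest in the lower layers of stratified epidermis, thus had KO levels of 1.23-fold and 4.97-fold over WT. The paper reports that Dsg3 mRNA reached into upper layers in KO epidermis, so this contrast need not lie within a shared layer.

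Dsg2 and Dsc2 were low in all genotypes, and 1 KO column carried the Dsc2 difference and part of the Dsg2 difference. Dsg2 stood at 15.8 to 20.8 CPM in WT, at 15.2 to 25.5 CPM in HET and at 29.1, 22.8, 23.5, 42.8 and 20.2 CPM in KO. Dsc2 stood at 6.6 to 8.29 CPM in WT, at 7.23 to 9.44 CPM in HET and at 6.88, 8.3, 6.55, 27.1 and 6.71 CPM in KO. KO replicate 4 was the highest column for both genes. With all columns the KO vs WT log2 fold change was 0.66 ± 0.18 for Dsg2 (adjusted p = 0.107) and 0.55 ± 0.33 for Dsc2 (adjusted p = 0.364). The adjusted p for Dsg2 was at or below 0.1 in 9 of 26 alternatives, with 0.0254 in DESeq2, and that for Dsc2 in 0 of 26. Without KO replicate 4 the log2 fold change was 0.45 ± 0.14 for Dsg2 (adjusted p = 0.234) and -0.08 ± 0.12 for Dsc2 (adjusted p = 0.796).

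Dsg4 was the lowest member outside the deletion. It stood at 1.07, 1.16, 1.87, 0.473 and 1.26 CPM in WT, on 13 to 59 counts, at 3.32, 4.72, 1.07, 2.15 and 1.29 CPM in HET, and at 5.08, 2.14, 1.74, 4.99 and 4.67 CPM in KO. KO replicate 3 fell within the WT range, as did HET replicates 3 and 5, so the groups overlapped. The log2 fold change was 1.66 ± 0.44 in KO vs WT (adjusted p = 0.102) and 1.11 ± 0.45 in HET vs WT (adjusted p = 1). The adjusted p for KO vs WT was at or below 0.1 in 9 of 26 alternatives. The summed level of 7 hair follicle markers was 146 to 326 CPM in WT, 116 to 496 CPM in HET and 170 to 401 CPM in KO, highest in HET replicate 2, which was also the highest HET column for Dsg4. For both the markers and Dsg4, KO replicate 1 was highest and KO replicate 3 lowest in KO. Likewise WT replicate 3 was highest and WT replicate 4 lowest in WT. In HET the lowest columns differed, replicate 5 for the markers and replicate 3 for Dsg4. The part of follicle content in the Dsg4 values was not tested.

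The members were then put on one scale per length. In WT the order of mean levels was Dsc1 (191 ± 46.5 RPKM), Dsg1a (127 ± 16.6), Dsc3 (79.5 ± 8.26), Dsg1b (20.4 ± 4.51), Dsg3 (3.53 ± 0.469), Dsg2 (2.12 ± 0.237), Dsc2 (1.43 ± 0.12), Dsg4 (0.335 ± 0.143) and Dsg1c (0.114 ± 0.0388). Neighbours in this order did not overlap between columns, except Dsc1 with Dsg1a and Dsg4 with Dsg1c. In HET Dsc3 (80.9 ± 15 RPKM) stood above Dsg1a (66.6 ± 8.3 RPKM) with overlapping columns, and Dsg1b (10.8 ± 1.25 RPKM) overlapped Dsg3 (6.79 ± 1.69 RPKM). In KO the order was Dsc1 (297 ± 43.4 RPKM), Dsc3 (98.0 ± 13.9), Dsg3 (17.6 ± 4.55), Dsg2 (3.35 ± 1.09), Dsc2 (2.11 ± 1.7) and Dsg4 (1.07 ± 0.471). There Dsc1, Dsc3 and Dsg3 were each clear of the next gene, while Dsg2 overlapped Dsc2 and Dsc2 overlapped Dsg4.

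Summed over the 9 members, the total pool was 343, 387, 390, 498 and 510 RPKM in WT, 345, 407, 339, 458 and 371 RPKM in HET, and 413, 510, 361, 420 and 390 RPKM in KO. The 3 ranges overlapped. The means were 426 ± 74.4, 384 ± 49.3 and 419 ± 56.0 RPKM, so HET was at 90.2% and KO at 98.4% of WT. Sums over members carry no test here, since the members were chosen together, and their support is the separation of the columns. The size of the total depends on the scale. When only 50-base stretches found in no other gene's transcript count as length, which raises the Dsg1 levels, KO was at 81.5% of WT.

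**Figure D3:**
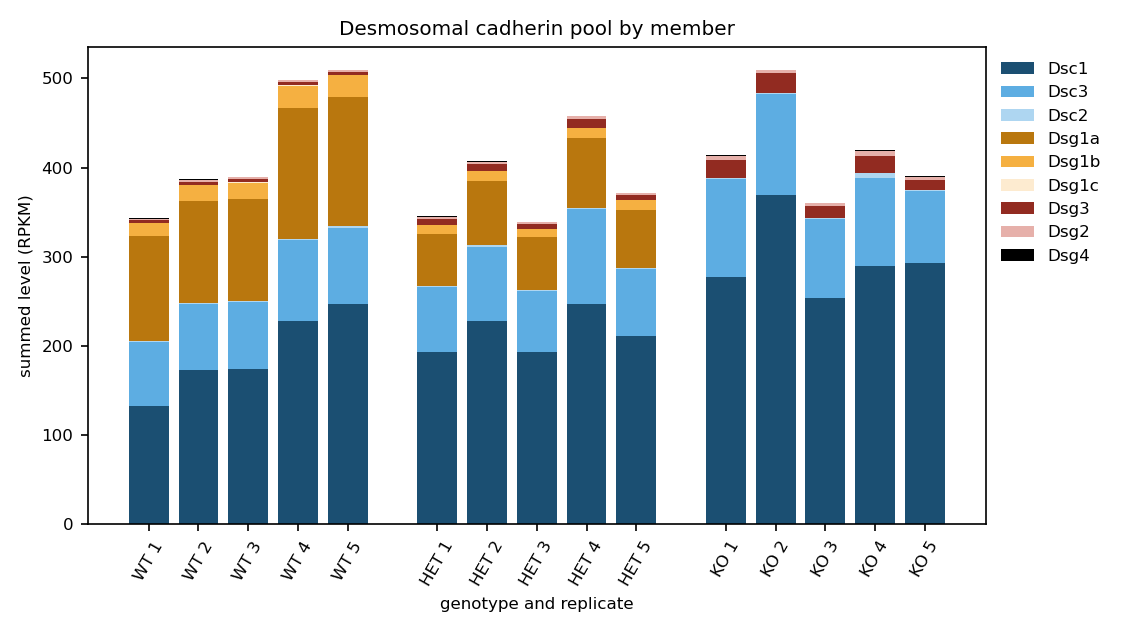
Summed level of the desmosomal cadherin transcripts in RPKM (vertical axis) in each of the 15 columns (horizontal axis, genotype and replicate), stacked by member. Column heights overlap between genotypes, from 339 to 510 RPKM, while the Dsg1a and Dsg1b blocks shrink in HET and are not visible in KO, where Dsc1 and Dsg3 take larger shares.

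The composition of the pool differed between the genotypes. Dsg1a made up 30.2 ± 2.28% of the WT pool, 17.3 ± 0.345% of the HET pool and 0.0204 ± 0.0128% of the KO pool, and Dsg1b 4.77 ± 0.264%, 2.82 ± 0.183% and 0.00364 ± 0.00236%. Dsc1 made up 44.4 ± 3.67%, 55.9 ± 1.17% and 70.8 ± 3.11%, and the HET and KO columns lay above all WT columns. Dsc3 made up 18.9 ± 1.58%, 21 ± 1.25% and 23.5 ± 2.26%, with overlap. Dsg3 made up 0.839 ± 0.109%, 1.75 ± 0.233% and 4.16 ± 0.75%, with no overlap. Shares add up to the whole, and the Dsc1 level in HET, at 112% of the WT mean, overlapped WT where its share did not.

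The desmoglein pool fell at each step with no overlap, from 137 to 179 RPKM in WT to 76.4 to 103 RPKM in HET and 15.6 to 26 RPKM in KO. HET held 56.7% and KO 14.3% of the WT mean. The desmogleins other than Dsg1 went the other way, with 5.99 ± 0.626 RPKM in WT, 9.79 ± 2.35 RPKM in HET and 22 ± 5.14 RPKM in KO, again with no overlap, which is 163% and 367% of WT. Dsg3 was 2.31 ± 0.32% of all desmoglein transcripts in WT, 7.71 ± 1.01% in HET and 79.2 ± 4.77% in KO. Dsg2 took 1.39 ± 0.137%, 2.6 ± 0.329% and 15.3 ± 3.47%, and Dsg4 0.226 ± 0.11%, 0.821 ± 0.477% and 5.02 ± 2.5%. The leading desmoglein transcript was Dsg1a in WT and HET, at 82.8% and 76.4%, and Dsg3 in KO. Loss of Dsg1 raises the shares of the remaining desmogleins even where their own levels do not change. In WT Dsg3 (3.53 RPKM) already stood above Dsg2 (2.12 RPKM) and Dsg4 (0.335 RPKM), so its lead in KO needs no rise of Dsg3. The KO levels of Dsg2 and Dsg4 overlapped those of WT.

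The desmocollin pool was 272 ± 54 RPKM in WT, 297 ± 37.9 RPKM in HET and 397 ± 52.5 RPKM in KO. The KO columns, at 343 to 484 RPKM, lay above all WT columns, at 205 to 334 RPKM, and overlapped HET, at 263 to 355 RPKM. The division within the desmocollins overlapped between genotypes: Dsc1 took 69.7 ± 3.6%, 72.3 ± 1.57% and 74.7 ± 2.63%, and Dsc3 29.8 ± 3.49%, 27.1 ± 1.58% and 24.8 ± 2.56%.

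The ratio of desmoglein to desmocollin transcripts was 0.667, 0.561, 0.556, 0.558 and 0.526 in WT, 0.291, 0.303, 0.291, 0.291 and 0.293 in HET, and 0.066, 0.0538, 0.0504, 0.0656 and 0.0418 in KO. The ratio does not depend on the scaling of a column. HET was at 51.2% and KO at 9.68% of the WT mean, and the SD in HET was 0.00546 against 0.0544 in WT and 0.0104 in KO. The ratios themselves depend on the length used, and with only the 50-base stretches found in no other gene's transcript they were 0.902, 0.45 and 0.0557.

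**Figure D4:**
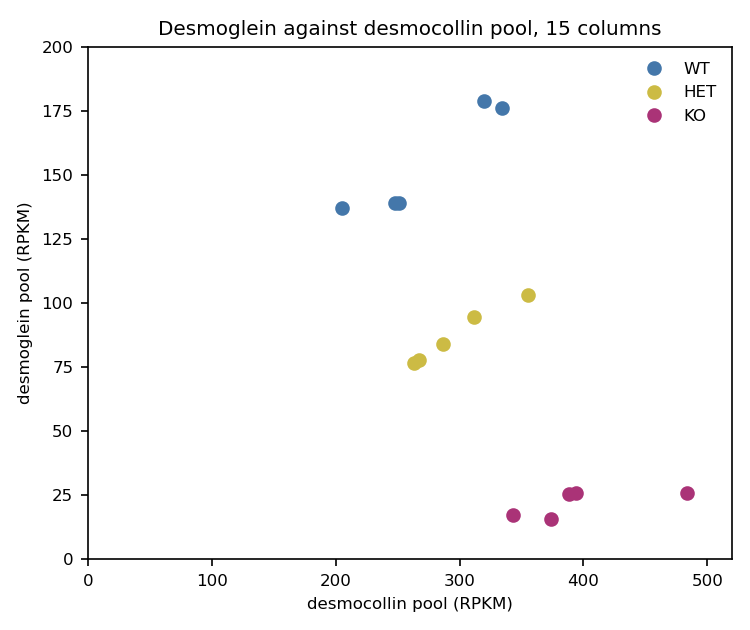
Desmoglein pool (vertical axis, RPKM) against desmocollin pool (horizontal axis, RPKM) in the 15 columns, colored by genotype. WT, HET and KO form separate bands at ratios of 0.526 to 0.667, 0.291 to 0.303 and 0.0418 to 0.066, and the KO columns lie to the right of the WT columns.

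The loss of Dsg1 transcripts was set beside the sum of the differences of the other members. In KO the Dsg1 genes were 148 RPKM lower than the WT mean, and the other 6 members together were 141 RPKM higher, which is 95.4% of the loss on this scale. This share depends on the scale: it was 59.8% with only the 50-base stretches found in no other gene's transcript as length. It was 114% with the longest transcript as length, and 12.6% relative to desmoplakin (Dsp) plus plakoglobin (Jup) in the same column. With 1 column left out it was 80.0% to 110%. On the main RPKM scale most of the 141 RPKM lay in Dsc1, at 106 RPKM or 71.6% of the loss. Next came Dsc3, with means of 79.5 RPKM in WT and 98.0 RPKM in KO, and Dsg3 at 14.0 RPKM or 9.49% of the loss. All desmogleins other than Dsg1 together made up 10.8% of the loss and the desmocollins 84.6%. In HET the loss was 70.5 RPKM and the other 6 members were 29 RPKM higher, or 41.1% of it, of which Dsc1 had 23.7 RPKM and Dsg3 3.26 RPKM. The HET share was 16.4% without WT replicate 1 and only slightly higher without HET replicate 4. It was 63.9% without WT replicate 4, 68.7% without WT replicate 5, 17.9% in title format 1 alone and 25.8% with the shorter length. The HET differences of Dsc1 and Dsc3 were within the spread between columns. Dsg3 thus had the largest fold and Dsc1 the largest difference in amount between KO and WT among the members outside the deletion.

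These sums were set beside the desmosomal plaque, the proteins that bind the cadherin tails. Of 9 plaque genes, 0 passed an adjusted p of 0.1 in KO vs WT in edgeR, 6 had an unadjusted p below 0.05, as did 19.3% of all genes, 8 had a positive fold change, and the median log2 value was 0.31. Desmoplakin (Dsp) was at 0.58 (adjusted p = 0.175), Jup at 0.38 (adjusted p = 0.233), Pkp1 at 0.35 (adjusted p = 0.223), Pkp3 at 0.31 (adjusted p = 0.165) and Perp, a desmosomal membrane protein, at 0.16 (adjusted p = 0.42). In HET vs WT the 9 genes lay between -0.14 and 0.05. Relative to Dsp plus Jup in the same column, the total cadherin pool was 149 ± 20.5% in WT, 135 ± 9.8% in HET and 103 ± 21.3% in KO, so KO was at 69.4% of WT on this scale. The desmocollin pool was then 94.6 ± 13.2%, 105 ± 7.64% and 98.0 ± 21.2%, at 104% of WT in KO, and the higher KO desmocollin level on the library scale did not remain. The desmogleins other than Dsg1 were at 2.13 ± 0.393%, 3.43 ± 0.597% and 5.28 ± 0.514%, with no overlap, and KO was at 248% of WT.

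The junction and cell type lists that could move with the members gave these values in KO vs WT. Of 5 classical cadherins and catenins, 0 passed, with a median log2 value of 0.19, and Cdh1 (E-cadherin) at 0.35 (adjusted p = 0.211) and Ctnna1 (alpha-catenin) at 0.19 (adjusted p = 0.235) had the smallest p. Of 6 tested genes of corneodesmosomes and their breakdown, 0 passed, and Klk6, a kallikrein protease, was highest at 2.24 (adjusted p = 0.101). Spink5, an inhibitor of such proteases, was at 0.39 (adjusted p = 0.228). An unadjusted p below 0.05 was seen for 2 of the 5 and 3 of the 6 genes, and for 19.3% of all genes. In HET vs WT and KO vs HET, 0 genes of the plaque, classical cadherin and corneodesmosome lists passed. The 7 suprabasal keratinocyte markers summed to 55700 to 79500 CPM in WT, 56100 to 73900 CPM in HET and 69900 to 104000 CPM in KO, all 7 had a positive KO vs WT value with a median of 0.32, and 1 passed, Ivl (involucrin), at 0.77 (adjusted p = 0.0231). The 7 basal markers summed to 6580 to 7170 CPM in WT, 5810 to 8040 CPM in HET and 6440 to 7960 CPM in KO, with a median log2 value of 0.16 in KO vs WT. The 6 dermal fibroblast markers summed to 22400 to 36600, 19900 to 32000 and 14700 to 29500 CPM, with a median of -0.24. The 5 erythroid markers summed to 334 to 1310 CPM in WT and 690 to 2020 CPM in KO, and 0 of the erythroid, endothelial, skeletal muscle and hair follicle markers passed. The part of a shift between skin layers in the levels of Dsc1 and the other members was not tested.

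All 9 members lie in one cluster on chromosome 18, in the order Dsc3, Dsc2, Dsc1, Dsg1c, Dsg1a, Dsg1b, Dsg4, Dsg3 and Dsg2, with the desmocollins on the minus strand and the desmogleins on the plus strand in GENCODE vM21 on GRCm38. No other gene of the table lies within the cluster. The next gene beyond the deletion on the desmoglein side is Dsg4, followed by Dsg3, and on the other side it is Dsc1. Of the 4 flanking genes that were tested, all beyond Dsg2, 0 passed in KO vs WT: Trappc8, a subunit of a trafficking complex, was at 0.31 (adjusted p = 0.102) and Gm10269, a processed pseudogene, at -0.67 (adjusted p = 0.276). Their values lay between -1.16 (Ttr, which encodes transthyretin, adjusted p = 0.607) and 0.31.

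After subtraction of the genotype mean, some members rose and fell together from column to column. Over the 15 columns, which share depth and tissue composition effects, the Pearson correlation of log2 CPM was 0.892 between Dsg3 and Dsc3, 0.67 between Dsc1 and Dsc3 and 0.579 between Dsg3 and Dsc1. The value of 0.759 between Dsg2 and Dsc2 includes KO replicate 4, where both were highest. Among 13541 genes with a mean of at least 50 counts, those most like Dsg3 were Dhx8 (0.974), Ddi2 (0.93) and Sppl3 (0.925). Those most like Dsc1 were Adgrf2 (0.943), RP23-219P13.3 (0.942) and Map2 (0.935), those most like Dsc3 were Pip4k2c (0.949), Wwc1 (0.945) and Stk4 (0.944), and those most like Dsg2 included Coch (0.84) and Pcid2 (0.837). These are descriptions of the 15 columns and carry no test.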

How the data were processed

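The authors deposited raw counts, whole numbers of reads per gene symbol in 24 library columns. The submitters' processing notes name STAR and HTSeq, without versions, and list the build hg19 although the libraries are from mouse. The annotation and the use of strand are not given in the sources used here, so no coordinates are printed. Libraries of the same genotype and title number were summed. The filterByExpr function of edgeR 4.0.16 (R 4.3.3) kept 17094 genes with 99.9% of the counts. All 3 genotypes entered 1 quasi-likelihood fit with TMM scaling, with Benjamini-Hochberg adjustment over the 17094 genes. Tests were two-sided. The fold limit and the p threshold were those the study states. CPM was divided by the union of annotated exons (GENCODE vM21) to give RPKM. Pools were described by mean, SD and overlap of columns. Floors cover counting error only. The scripts were tested on simulated counts. DESeq2 1.42.0, other scalings, filters, lengths and replicate units, and leaving out each column, were the alternatives.

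The members, lists and tests were chosen with earlier results of these data known. All 9 members are named. Of each list, the genes past an adjusted p of 0.1 or else the 2 with the smallest p are named, with Dsp, Jup, Pkp1 and Perp. Ttr was added after its value was seen. For likeness, the 3 genes with the highest correlation to Dsg3, Dsc1, Dsc3 and Dsg2 are named, except 1 that is not reported here.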

Additional observations from a re-analysis of the deposited data

Results flagged for a closer look

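Among 47 groups of 5 columns examined, 3 had an extreme column whose gap to the nearest other column was more than 0.71 of the group's range, where chance gives 2.35 of 47. Dsc2 in KO replicate 4 was flagged with a gap share of 0.915, at 27.1 CPM against 6.55 to 8.3 CPM in the other KO columns. Dsg2 was also highest in that column, at 42.8 CPM. The desmoglein to desmocollin ratio of WT replicate 1 was flagged with a gap share of 0.754, at 0.667 against 0.526 to 0.561 in the other WT columns. Dsc1 was lowest in that column among WT, at 665 CPM. The ratio of HET replicate 2 was flagged with a gap share of 0.839, at 0.303 against 0.291 to 0.293, a gap that is small beside the differences between genotypes.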

How the results depend on the processing

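Dsg3 passed in KO vs WT under all 26 alternatives and in KO vs HET under 25, the exception being the fit of only the 2 genotypes (adjusted p = 0.126). With no fold limit, members called in HET vs WT went from 0 to 3 in DESeq2, 3 with the 24 libraries separate, and 1 each with total count scaling, no filter, number 35 as 2 columns and only the 2 genotypes, and were 0 to 2 with 1 column left out. In KO vs WT they went from 4 to 7 with the 24 libraries separate and were 3 to 7 with 1 column left out, and in KO vs HET from 3 to 5 in DESeq2, 6 with the 24 libraries separate and 3 to 5 with 1 column left out. With the fold limit, leaving out 1 column gave 3 to 5 in KO vs WT, 3 to 4 in KO vs HET and 0 to 1 in HET vs WT. With no fold limit, the largest of these counts came without KO replicate 3 or 5 in KO vs WT. They came without HET replicate 4 or KO replicate 5 in KO vs HET, and without KO replicate 4 in HET vs WT. Dsg1c entered the fit in 8 alternatives and passed in all 8 in KO vs WT and KO vs HET and in 0 in HET vs WT. Treating 24 libraries as separate counts the same title number more than once.

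Values that changed sign were small and passed in no fit that changed them. In title format 1 alone, Dsc2 was at -0.092 in KO vs WT and -0.192 in KO vs HET, Dsg2 at -0.066 and Dsc3 at -0.111 in HET vs WT, and Dsg4 at -0.049 in KO vs HET. Dsc3 in HET vs WT was at -0.025 with the 24 libraries separate and -0.093 to 0.084 with 1 column left out. With 1 column left out, Dsg2 in HET vs WT was at -0.037 to 0.166, Dsc2 in KO vs WT at -0.082 to 0.694 and Dsc2 in KO vs HET at -0.21 to 0.565, the lowest Dsc2 values without KO replicate 4. The cause of these changes was not tested beyond the column left out.

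The total pool in KO was 81.5% of WT with the length free of stretches found in other genes' transcripts, an alternative chosen after seeing the data, 69.4% relative to Dsp plus Jup and up to 104% otherwise. The desmogleins other than Dsg1 in KO were 248% of WT relative to Dsp plus Jup and 248% to 394% over all 23 alternatives. A length of 50-base reads unique in the genome was not run, as no genome was used here. No paired analysis was run: the sample labels used here name no litter, and the genotypes share no title number.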
